A study of Mus musculus with 12 samples.

Results

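The genes described here encode secreted products by which IL-4-activated mouse macrophages are often recognised: the chitinase-like proteins Chil1, Chil3 and Chil4, the resistin-like molecule Retnla, and the eosinophil-associated ribonucleases Ear2 and Rnase2a. They were found by gene symbol, and 6 of the 7 symbols asked for had a row among the 47729 genes of the count table. The other symbol, Ear11, is listed by RefSeq as a synonym of Rnase2a and was read through that row. A filter on low counts was passed by 5 of the 6 genes, and Chil1 was not tested. Chil4 and Rnase2a passed it through the IL-4 libraries alone, so a difference from the other injection was built into their passing, and their calls are given as descriptions.

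Polyadenylated RNA was sequenced from adherent peritoneal macrophages of C57BL/6 mice in 4 groups of 3 libraries. TG mice had received 3% thioglycollate, an irritant that recruits inflammatory monocytes, in 1 injection 4 days before collection. IL4c mice had received IL-4 complex, 5 ug of IL-4 held by 25 ug of an IL-4 antibody, in each of 2 injections, with collection 2 days after the second. After 2 h of adhesion and 3 washes, wells of each injection were kept for 24 h either untreated or with 20 ug/ml of SPARC, a secreted matricellular glycoprotein, so that every library came from cells cultured outside the animal. The labels name no control protein for SPARC and no age or sex. Nor do they tie the libraries of a group to different mice, and p-values therefore reflect sample-to-sample spread that may be technical. Libraries held 31501941 to 42288785 counts, and levels are given as CPM, that is, counts scaled to the TMM-adjusted size of each library. At these depths 3 counts, taken as the floor for a gene at 0, were worth 0.0707 to 0.0974 CPM.

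Chil3 (Ym1) and Chil4 (Ym2) are rodent relatives of the chitinases that keep the carbohydrate-binding fold but have lost the catalytic residues. Retnla (RELM-alpha, FIZZ1) is a small cysteine-rich secreted protein, and the ribonucleases belong to the rodent expansion of the pancreatic ribonuclease superfamily. In macrophages, IL-4 acts through its receptor and the transcription factor STAT6, and Chil3 and Retnla are textbook targets of that pathway, read with Arg1 as signs of alternative activation. The same proteins are made by other cells: Chil3 by neutrophils and lung macrophages, Chil4 by inflamed airway epithelium, and Ear proteins by eosinophils.

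Chil1 lies on the plus strand of chromosome 1, at chr1:134182176-134190181. Chil3 and Chil4 lie side by side on the minus strand of chromosome 3, Chil3 at chr3:106147554-106167564 and Chil4 at chr3:106201490-106219507 (GENCODE annotation of GRCm38), with 33925 bases between them. Of the 50-base stretches of Chil3 transcripts, 17.9% also occur in Chil4, and 18.5% of those of Chil4 occur in Chil3, so reads from shared stretches were divided between the copies by the authors' counting. Retnla lies on the plus strand at chr16:48842551-48844461. Upstream sequence is printed because STAT6 binds palindromes of TTC and GAA. TTC and GAA with any 4 bases between them (the STAT6 spacing), TTC and GAA with any 3 bases between them (the spacing of other STAT proteins) and GAAA repeated after any 2 bases (the core of the interferon-stimulated response element) were searched on both strands in the 250 bases before each start in RefSeq (GRCm38.p6). They occurred in 5.85%, 7.02% and 2.98% of all 32851 such windows. The stretches below run 5′ to 3′ on the gene's strand, with matches in capitals: chr3:106167565-106167814 for Chil3, chr3:106219508-106219729 for Chil4 and chr16:48842359-48842550 for Retnla. The bases next to the RefSeq start that GENCODE counts as transcribed, 28 for Chil4 and 58 for Retnla, are left out.
Chil3: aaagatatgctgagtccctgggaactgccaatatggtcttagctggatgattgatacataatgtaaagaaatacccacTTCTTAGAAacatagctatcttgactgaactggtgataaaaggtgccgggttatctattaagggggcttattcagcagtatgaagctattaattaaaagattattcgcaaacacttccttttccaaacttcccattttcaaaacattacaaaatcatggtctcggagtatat
Chil4: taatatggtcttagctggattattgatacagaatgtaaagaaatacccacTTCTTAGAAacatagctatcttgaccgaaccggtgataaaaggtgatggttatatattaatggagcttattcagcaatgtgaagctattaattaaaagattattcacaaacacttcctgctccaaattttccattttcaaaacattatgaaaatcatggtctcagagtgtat
Retnla: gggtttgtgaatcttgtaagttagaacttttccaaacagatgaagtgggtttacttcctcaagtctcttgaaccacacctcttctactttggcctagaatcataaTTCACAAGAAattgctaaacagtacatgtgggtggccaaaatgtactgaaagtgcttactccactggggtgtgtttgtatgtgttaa
Chil3 and Chil4 each held 1 match with 3 bases between, the same 9 bases in both, whose first letter lay 172 and 200 bases before the respective start. Their upstream windows were identical at 201 of 221 aligned bases (91.0%). Retnla held 1 match with 4 bases between, 145 bases before its start. No searched letters occurred in the windows of Chil1, Ear2 or Rnase2a. A match is a description of letters, and binding was not measured.

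Rnase2a lies on the minus strand at chr14:51255262-51256112, and its nearest copy Rnase2b on the plus strand at chr14:51162260-51163018, 92243 bases away. The upstream windows of this pair are printed because the copies were counted at different levels in the IL4c libraries. Capitals mark the 20 substitutions among 231 aligned bases, of which 211 were identical (91.3%). Within its window Rnase2a also holds a run of bases that the Rnase2b window lacks. That run is not marked and is not among the aligned bases. The windows are chr14:51256113-51256362 on the minus strand and chr14:51162010-51162259 on the plus strand.
Rnase2a: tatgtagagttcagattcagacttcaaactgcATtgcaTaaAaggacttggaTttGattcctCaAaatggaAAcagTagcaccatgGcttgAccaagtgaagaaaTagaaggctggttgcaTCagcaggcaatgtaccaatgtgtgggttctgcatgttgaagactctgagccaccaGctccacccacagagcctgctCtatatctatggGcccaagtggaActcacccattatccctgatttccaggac
Rnase2b: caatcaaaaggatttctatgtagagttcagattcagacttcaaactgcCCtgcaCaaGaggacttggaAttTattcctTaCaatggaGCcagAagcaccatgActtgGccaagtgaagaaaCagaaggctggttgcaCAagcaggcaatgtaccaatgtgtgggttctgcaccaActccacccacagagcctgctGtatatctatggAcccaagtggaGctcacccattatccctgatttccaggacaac
Rnase2a shared no 50-base stretch with the transcripts of the listed ribonuclease genes, Rnase2b included. Ear2, at chr14:44102654-44103534 on the plus strand, shared 23.6% of its 50-base stretches with Ear1 and 26.0% with Ear10, so its counts are less certain. Ear1 itself reached 4.25 counts and Ear10 1.38 counts in any library.

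Chil3 was among the most abundant messages of IL4c macrophages. In untreated IL4c wells its level was 35237, 30370 and 24357 CPM in libraries 1, 2 and 3, or 29988 ± 5450 CPM (SD, n = 3). In untreated TG wells it was 33.2, 9.91 and 8.38 CPM, or 17.2 ± 13.9 CPM (SD, n = 3). Every IL4c library stood far above every TG library, and TG library 1 stood above the other TG libraries. The fitted log2 difference was 10.77 ± 0.87 (SE; 95% interval 8.83 to 12.70), a 1745-fold higher level (adjusted p = 1.94e-04, edgeR quasi-likelihood test with Benjamini-Hochberg adjustment). Without TG untreated library 1 it was 11.69. Per transcript length (FPKM), Chil3 ranked 2, 2 and 4 among all genes of the untreated IL4c libraries, behind the acute-phase gene Saa3 in all of them, and 3 in each IL4c library with SPARC. It took 2.39% to 3.45% of all counts in untreated IL4c wells. The 6 genes together took 2.70% to 3.78% there and at most 0.0104% in any TG library.

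Chil4 was counted in IL4c libraries alone. It was at 0 in all 6 TG libraries and at 79.3, 64.1 and 103 CPM in the untreated IL4c libraries, or 82.3 ± 19.8 CPM (SD, n = 3). Against a floor of 3 counts in the shallowest untreated TG library (0.0788 CPM), the IL4c mean was at least 1044-fold higher. Chil4 was a minor product beside its neighbour: for every 1000 Chil3 counts, the untreated IL4c libraries held 2.25, 2.11 and 4.25 Chil4 counts and those with SPARC held 2.47, 2.26 and 4.06. Libraries numbered 3 had the higher ratio under both treatments. The 6 TG libraries held 3739 Chil3 counts in all, which at the IL4c ratios would correspond to 7.89 to 15.9 Chil4 counts, where 0 were seen. Chil4 shares stretches with the far more abundant Chil3. Whether part of its IL4c counts are reads of Chil3 was not tested.

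Retnla was at 3349, 3443 and 3019 CPM in untreated IL4c wells, or 3270 ± 223 CPM (SD, n = 3). In untreated TG wells it was at 55.9, 8.55 and 17.1 CPM, or 27.2 ± 25.2 CPM (SD, n = 3). The IL4c libraries lay within a narrow range, and the TG libraries, again with library 1 at the top, lay below all of them. Retnla was 120-fold higher in IL4c (log2 6.91 ± 0.87 SE, 95% interval 4.98 to 8.84; adjusted p = 0.00137, edgeR). Without TG untreated library 1 the log2 difference was 8.0.

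Among the ribonucleases, Rnase2a, a protein reported to attract macrophages, was nearly restricted to IL4c. Its counts in untreated TG libraries were 4, 1 and 0, and in untreated IL4c libraries 448, 334 and 1752, or 23.8 ± 19.9 CPM (SD, n = 3). IL4c library 3 stood above libraries 1 and 2. The ratio of the summed levels was 594 (exact 95% counting interval 254 to 1831, which leaves out the spread between libraries). The fitted log2 difference was 9.04 ± 1.09 (SE; 95% interval 6.6 to 11.5; adjusted p = 0.00118, edgeR). The call was lost with limma-voom (adjusted p = 0.0697), and the adjusted p ran from 2.14e-18 to 0.0697 over all alternatives. With the 7 Ear and Rnase2 rows summed into 1, where Ear2 supplies most TG counts, the log2 difference was 2.63. Without TG untreated library 1 the log2 difference was 10.50, and without IL4c untreated library 3 it was 8.09.

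Ear2, an eosinophil granule ribonuclease, did not share this pattern. It was at 5.02, 2.68 and 4.91 CPM in untreated TG wells and at 0.941, 3.29 and 3.27 CPM in untreated IL4c wells, with overlapping ranges. The log2 difference was −0.74 ± 0.69 (SE; 95% interval −2.29 to 0.80) and did not pass (adjusted p = 0.475, edgeR). Chil1 (BRP-39), the mouse relative of human YKL-40, was near the floor everywhere. Its counts were 0, 4 and 6 in untreated TG libraries, 1, 10 and 9 in TG with SPARC, 1, 1 and 1 in untreated IL4c and 1, 1 and 5 in IL4c with SPARC.

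**Figure D1:**
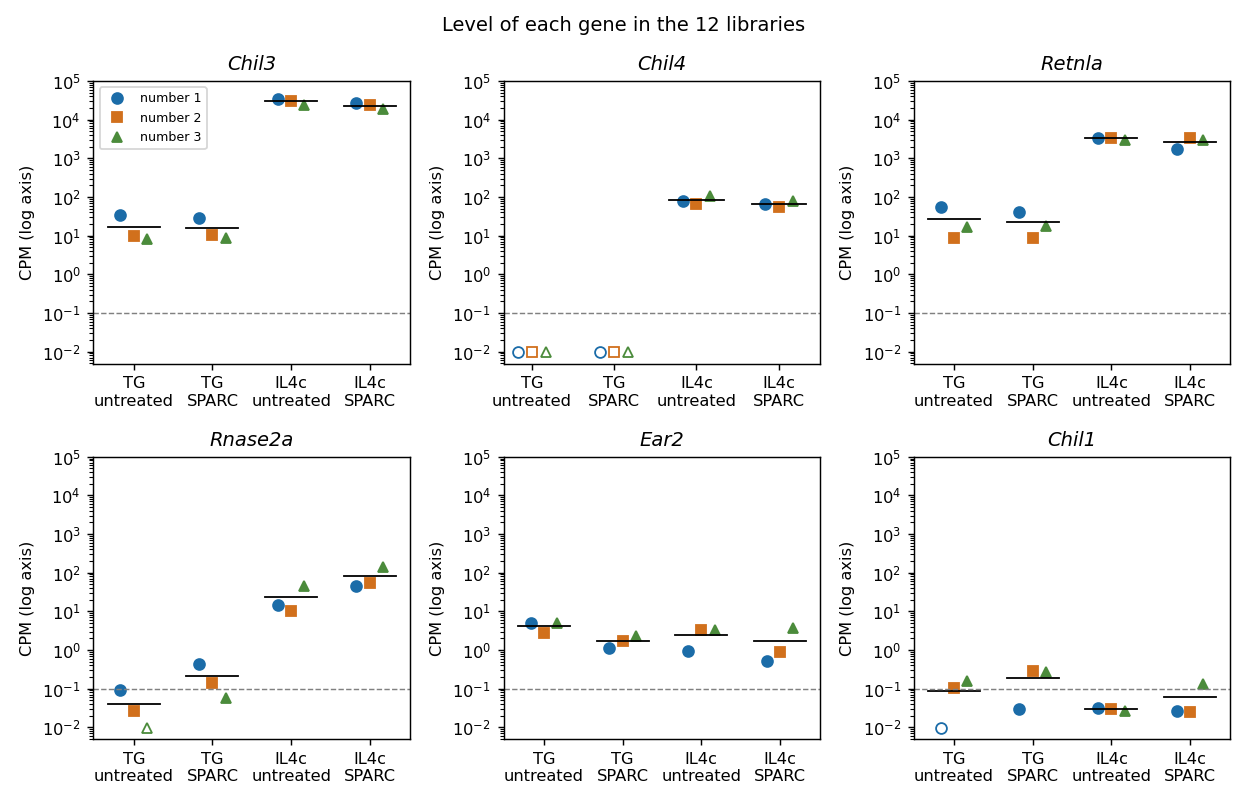
Level of each of the 6 genes in each of the 12 libraries (CPM, log axis), by group on the horizontal axis. Symbols give the library number, black bars the group mean, open symbols libraries at 0 counts (drawn at the foot of the axis) and the dashed line the largest CPM worth of 3 counts (0.0974). Chil3, Chil4, Retnla and Rnase2a are higher in every IL4c library than in any TG library, while the ranges of Ear2 overlap.

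Thus 4 of the 5 tested genes passed between the injections in untreated wells, all higher in IL4c, where 21.0% of the 15232 genes tested passed in either direction and 10.2% passed as higher. Since 2 of the 4 had to differ to be tested, the count adds little to the values of Chil3 and Retnla. These are bulk libraries, in which more cells of a kind and more RNA per cell cannot be told apart.

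With SPARC in both arms 4 of the 5 genes passed between the injections, the same 4 as in untreated wells, where again 21.0% of all genes passed (10.9% as higher). Chil3 was at 26434, 23815 and 19163 CPM in IL4c with SPARC and at 29.4, 10.3 and 8.94 CPM in TG with SPARC. The log2 difference was 10.48 ± 0.86 (SE; adjusted p = 1.30e-04, edgeR). Retnla was at 1726, 3328 and 3045 CPM against 40.3, 8.70 and 17.7 CPM. Its log2 difference was 6.92 ± 0.87 (SE; adjusted p = 9.59e-04, edgeR), although IL4c library 1 with SPARC held the lowest Retnla level of the 6 IL4c libraries. Chil4 was at 65.3, 53.9 and 77.9 CPM against 0, at least 719-fold higher by its mean.

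Rnase2a with SPARC was at 45.4, 54.7 and 142 CPM in IL4c, against 14, 5 and 2 counts in TG. The ratio of summed levels was 391 (exact 95% counting interval 255 to 631) and the log2 difference 8.58 ± 0.96 (SE; 95% interval 6.45 to 10.72; adjusted p = 6.20e-04, edgeR). The highest value was again in IL4c library 3 and every IL4c library was above every TG library. With the ribonuclease rows summed the log2 difference was 5.33. Without TG SPARC library 1 the log2 differences were 11.22 for Chil3, 7.67 for Retnla and 9.57 for Rnase2a. Ear2 was at 0.527, 0.888 and 3.73 CPM in IL4c and 1.16, 1.67 and 2.29 CPM in TG, a log2 difference of 0.01 ± 0.70 (SE; adjusted p = 0.996, edgeR). Its sign turned under several alternatives, given under the processing of the data.

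Compared per length, the order in untreated IL4c wells was Chil3 (mean 19973 FPKM), Retnla (6080 FPKM), Chil4 (54.8 FPKM), Rnase2a (38.0 FPKM), Ear2 (3.77 FPKM) and Chil1 (0.0267 FPKM). Chil4 and Rnase2a were neighbours whose libraries overlapped, at 42.0 to 69.2 FPKM and 15.9 to 74.8 FPKM, while the other neighbours did not overlap. In IL4c wells with SPARC the FPKM order of this pair was the other way, with Rnase2a at 73.3 to 228 and Chil4 at 35.3 to 52.1 FPKM. In untreated TG wells the highest mean was that of Retnla (56.1 FPKM), and its libraries overlapped those of Chil3 (12.6 FPKM).

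**Figure D2:**
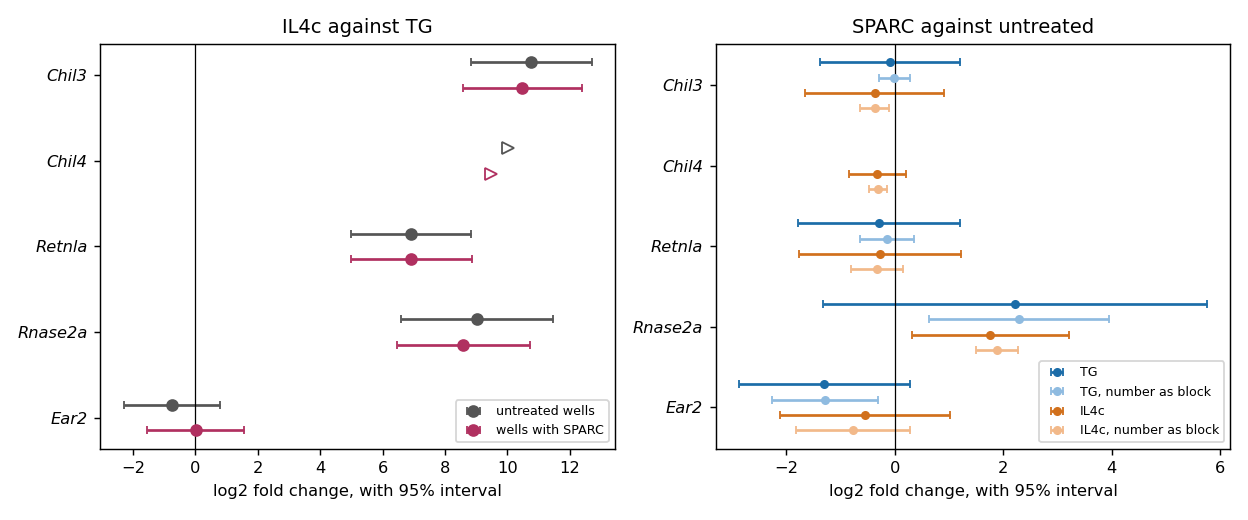
Log2 fold changes with 95% intervals for the tested genes. On the left, IL4c against TG in untreated wells and in wells with SPARC, with triangles for the lower bounds of Chil4; on the right, SPARC against untreated in each injection, without and with the library number as a block. On the left Chil3, Retnla and Rnase2a lie between 6.91 and 10.77 and Ear2 near 0; on the right the block narrows the intervals, and Rnase2a in IL4c lies at 1.76 and 1.88.

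With SPARC in IL4c wells, Rnase2a showed the largest difference from untreated wells, upward in every pair, while Chil3 and Chil4 were modestly lower in every pair. None of the 5 genes passed in the unblocked fit, where 27.8% of all genes did. Library numbers were taken to pair the wells within an injection, as read from the data and not from the labels. Calls made with the block depend on that pairing. With the number as a block 3 of the 5 passed (Chil3, Chil4 and Rnase2a), where 45.2% of all genes did. These shares are near the background, so the counts mark nothing about the genes as a group.

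For Rnase2a in IL4c, the level with SPARC was 3.12, 5.41 and 3.05 times the untreated level in pairs 1, 2 and 3. All 3 pairs differed in the same direction, although untreated library 3 (46.6 CPM) stood above SPARC library 1 (45.4 CPM), so the groups overlapped. Means were 23.8 ± 19.9 and 80.8 ± 53.5 CPM (SD, n = 3 each). Without the block the log2 difference was 1.76 ± 0.65 (SE; 95% interval 0.32 to 3.21) and did not pass (adjusted p = 0.0682, edgeR). With the block Rnase2a rose by 1.88 ± 0.17 (SE; 95% interval 1.49 to 2.27; adjusted p = 2.33e-04, edgeR). It passed in 6 of 26 alternatives, with an adjusted p of 2.33e-04 to 0.268 and a log2 difference of 1.08 to 2.72, the lowest without IL4c SPARC library 3 and the highest without IL4c untreated library 3 (adjusted p = 0.0158).

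Chil3 in IL4c was 0.750, 0.784 and 0.787 times the untreated level with SPARC, and Chil4 0.823, 0.841 and 0.753 times. Each pair was lower with SPARC for both genes, while the ranges of the groups overlapped. Group means were 29988 ± 5450 and 23137 ± 3683 CPM for Chil3, and 82.3 ± 19.8 and 65.7 ± 11.97 CPM for Chil4 (SD, n = 3 each). Without the block the log2 differences were −0.37 ± 0.57 for Chil3 (SE; 95% interval −1.65 to 0.91; adjusted p = 0.672, edgeR) and −0.33 ± 0.21 for Chil4 (SE; 95% interval −0.85 to 0.20; adjusted p = 0.322, edgeR). With the block Chil3 fell by 0.37 ± 0.12 (SE; adjusted p = 0.0347, edgeR) and Chil4 fell by 0.31 ± 0.07 (SE; adjusted p = 0.0149, edgeR).

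Retnla with SPARC was 0.515 times the untreated level in IL4c pair 1 and 0.967 and 1.01 times in pairs 2 and 3. A single pair thus carried the difference, and neither fit passed: the log2 value was −0.28 ± 0.67 without the block (SE; 95% interval −1.77 to 1.21; adjusted p = 0.795, edgeR) and −0.33 ± 0.20 with it (SE; adjusted p = 0.227, edgeR). Ear2 was 0.560, 0.270 and 1.14 times the untreated level, with a log2 value of −0.55 ± 0.70 (SE; 95% interval −2.11 to 1.01; adjusted p = 0.606, edgeR).

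**Figure D3:**
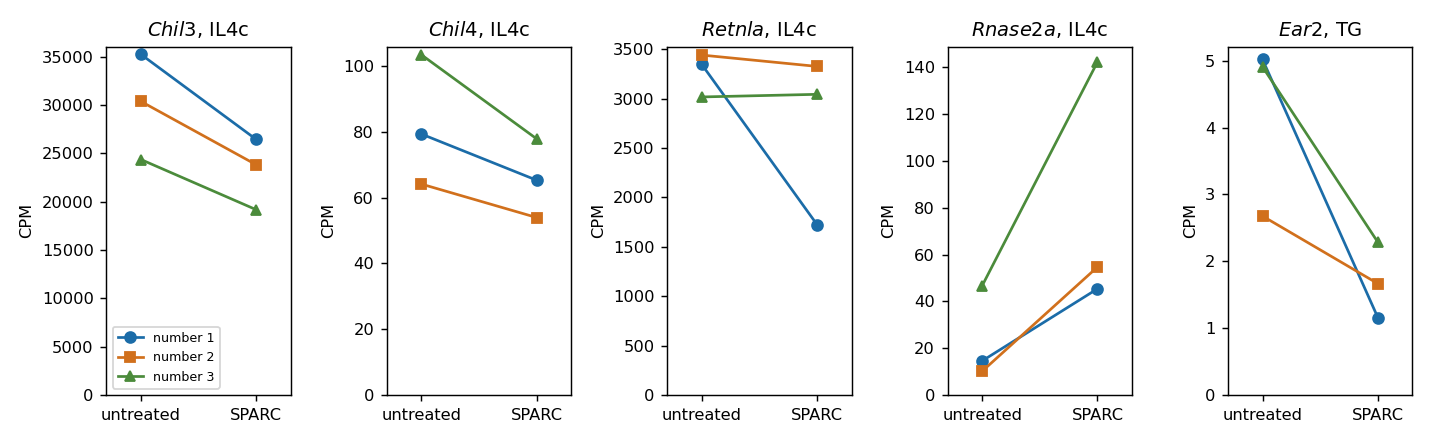
CPM without and with SPARC for libraries of the same number (lines), for Chil3, Chil4, Retnla and Rnase2a in IL4c and Ear2 in TG; each panel has its own linear axis from 0. Chil3 and Chil4 slope down in all 3 pairs, Rnase2a slopes up in all 3, Retnla slopes down mainly in pair 1, and Ear2 in TG slopes down in all 3.

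In TG wells with SPARC, Chil3 reached at most 29.4 CPM and Retnla at most 40.3 CPM, and Chil4 was at 0. None of the 5 genes passed, where 11.3% of all genes did, nor with the block, where 27.3% did. Chil3 with SPARC was 0.886, 1.04 and 1.07 times the untreated level (log2 −0.08 ± 0.58 SE, 95% interval −1.37 to 1.21; adjusted p = 0.953, edgeR). Retnla was 0.721, 1.02 and 1.03 times the untreated level (log2 −0.29 ± 0.67 SE, 95% interval −1.79 to 1.21; adjusted p = 0.837, edgeR). Both signs rest on pair 1: without it the log2 values were 0.10 for Chil3 and 0.06 for Retnla, and without TG untreated library 1 alone they were 0.81 and 0.77.

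Ear2 in TG was 0.231, 0.622 and 0.465 times the untreated level with SPARC, at 1.16 to 2.29 against 2.68 to 5.02 CPM. The libraries with SPARC all lay below the untreated ones, but the log2 difference of −1.30 ± 0.71 did not pass (SE; 95% interval −2.87 to 0.27; adjusted p = 0.277, edgeR), nor did −1.29 ± 0.42 with the block (SE; adjusted p = 0.0596, edgeR). Rnase2a in TG summed to 5 counts without and 21 counts with SPARC, a log2 difference of 2.22 ± 1.59 (SE; 95% interval −1.32 to 5.76; adjusted p = 0.423, edgeR) and, with the block, 2.29 ± 0.70 (SE; adjusted p = 0.0502, edgeR). Several of these libraries lie at or under the floor of 3 counts.

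Whether SPARC acted differently in the 2 injections was tested directly. None of the genes passed, where 0% of all genes did (1612 genes had an unadjusted p under 0.05, DESeq2 called 364 genes, and with the block 3.10% of all genes passed). The difference, IL4c minus TG, was −0.29 ± 0.82 for Chil3 (SE; 95% interval −2.11 to 1.52), 0.01 ± 0.95 for Retnla (SE; −2.09 to 2.12), −0.45 ± 1.58 for Rnase2a (SE; −3.98 to 3.07) and 0.75 ± 0.99 for Ear2 (SE; −1.45 to 2.95). These intervals are wide, and for Chil4 no value can be given because TG was at 0. Adjusted p-values ran from 0.888 to 1.00 (edgeR).

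Other genes of the same families were mostly silent or flat. Of the chitinase family, 7 of 8 listed symbols had a row and 4 were tested, of which 2 were higher in untreated IL4c and none lower. In that comparison 10.2% of all genes passed as higher. Chit1, the active chitinase of macrophages, had 1 to 4 counts in untreated TG libraries and 14 to 23 in untreated IL4c libraries (log2 3.14 ± 0.73 SE; adjusted p = 0.0159, edgeR). Its level was low beside that of Chil3. Ctbs, the lysosomal chitobiase, was higher by 0.37 ± 0.07 on the log2 scale (SE; adjusted p = 0.00579, edgeR) and rose with SPARC in IL4c by 0.25 ± 0.07 (SE; adjusted p = 0.0194, edgeR), while Chid1 and Ovgp1 passed in neither comparison. The resistin family had 3 further rows and none was tested: Retn reached 11 counts in any library, Retnlg 10 and Retnlb 2. Retnla was thus the one resistin-family gene with more than 11 counts in a library.

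Of 25 further symbols of the ribonuclease A family, 18 had a row, 8 of these were at 0 in every library and 3 were tested. Rnase4, Rnase6 and Ang passed in no comparison of the unblocked fit, and with the block 2 calls were made. Rnase6 fell with SPARC in IL4c by 1.13 ± 0.27 on the log2 scale (SE; adjusted p = 0.0126, edgeR), and Rnase4 was lower in IL4c than in TG with SPARC in both, at −0.86 ± 0.27 (SE; adjusted p = 0.0476, edgeR). The block behind the Rnase4 call shared library numbers across the injections, where no pairing was seen. Rnase2b, whose upstream window is printed above, reached 12 counts in any library, where Rnase2a reached 5532. That inequality was seen in IL4c libraries; in untreated TG libraries Rnase2a summed to 5 counts and Rnase2b to 3, both near the floor.

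A list of 42 further genes of alternative activation was read beside them, 41 of which were tested. In untreated wells 10 were higher and 4 lower in IL4c, where 10.2% of all genes passed as higher and 21.0% in either direction, with a median log2 difference of 0.38 (−0.05 over all genes tested). Arg1, which degrades arginine, was higher by 4.56 ± 0.50 (SE; adjusted p = 7.30e-04, edgeR), the C-type lectin Mgl2 by 4.82 ± 0.86 (SE; adjusted p = 0.00565, edgeR), the transcription factor Klf4 by 2.89 and the transglutaminase Tgm2 by 1.76. The mannose receptor Mrc1 (0.38, adjusted p = 0.776, edgeR) and the lectin Clec10a (0.05, adjusted p = 0.926, edgeR) did not pass. Chil3, Retnla and Rnase2a thus had larger fitted log2 differences than Arg1, which were not tested against each other. That of Rnase2a rests on 5 summed counts in untreated TG. With the ribonuclease rows summed, the difference was 2.63, smaller than that of Arg1.

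With SPARC in IL4c wells, 5 of the 41 were higher and 8 lower, where 27.8% of all genes passed in either direction. With the block 8 were higher and 20 lower, where 45.2% of all genes passed. The median without the block was −0.54 (−0.00 over all genes tested). Mgl2 rose by 2.40 ± 0.74 (SE; adjusted p = 0.0357, edgeR), the chemokine Ccl7 by 5.14 and the plexin Plxnd1 by 1.31, while the lectins Cd209a and Cd209e fell by 6.21 and 5.38. Arg1 (−0.98, adjusted p = 0.123), Mrc1 (−2.31, adjusted p = 0.0708) and Clec10a (−0.95, adjusted p = 0.0557) did not pass in the unblocked edgeR fit, and all 3 fell with the block (adjusted p = 0.0492, 0.00215 and 0.0393). In TG wells with SPARC Arg1 rose by 2.55 and Clec10a fell by 3.15, with 3 of the 41 higher and 3 lower where 11.3% of all genes passed, and 12 and 12 with the block where 27.3% did (median −0.31, against −0.03 over all genes tested). With SPARC in both injections, 9 were higher and 4 lower in IL4c, where 21.0% of all genes passed, with a median of 0.08 (−0.03 over all genes tested). In the difference of the SPARC effects none passed; with the block 2 were higher and 6 lower, where 3.10% of all genes passed.

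Likeness was measured as the root mean square difference in log2 CPM over the 12 libraries, after each gene was centred on its own mean, among the 8604 genes that averaged 10 CPM or more. For Chil3, the other member closest to it was Chil4 (0.70), then Rnase2a (1.85) and Retnla (1.87). Chil4 was at 0 in every TG library and Rnase2a had at most 14 counts there. Their TG values thus rest largely on the small count added before taking logs. Reads from stretches shared by Chil3 and Chil4 were also divided between the 2 genes. Outside the members the closest to Chil3 were Ackr3 (2.63), Mgl2 (2.65) and Aqp9 (2.83), and the same 3 genes were closest to Chil4 (2.51, 2.31 and 2.61). Retnla was closest to Car6 (1.24), Kcnn3 (1.33) and Lrg1 (1.38), and Rnase2a to Mgl2 (1.52), Aqp9 (1.53) and Car6 (1.805). Mgl2 was at 41.7 ± 40.2 CPM in untreated IL4c wells and 220.5 ± 203.5 CPM with SPARC (SD, n = 3 each). Aqp9, an aquaglyceroporin, was at 51.0 ± 22.1 and 154.7 ± 45.0 CPM. Both means were higher with SPARC in IL4c, as was that of Rnase2a. Since Mgl2 and Aqp9 were chosen for likeness to Rnase2a over these same libraries, the shared rise is no separate result. Ackr3 was at 19.4 ± 15.1 and 56.6 ± 39.2 CPM (SD, n = 3 each). All 3 genes closest to Chil3 and Chil4 thus had higher means with SPARC in IL4c, where the means of Chil3 and Chil4 were lower.

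Markers of cells other than macrophages were read because several of them make the same proteins. The 10 macrophage marker symbols summed to 13585 to 35404 CPM over the 12 libraries, and none was at 0. Eosinophil markers (11 rows) summed to 9.79 to 24.5 CPM in untreated TG, 5.61 to 17.1 in TG with SPARC, 8.35 to 8.49 in untreated IL4c and 9.88 to 17.6 in IL4c with SPARC. The granule genes Epx, Prg2, Prg3 and Ear6 had at most 3 counts in any library, and Ear1 at most 4.25. Other genes of the list were counted: Il5ra averaged 8.10 CPM in untreated TG and 2.03 in untreated IL4c, and Siglecf 4.13 and 1.17 CPM. No gene of the list passed as lower in untreated IL4c. Of the 5 tested genes of that list, 1 was higher in IL4c than in TG in untreated wells, the comparison in which Rnase2a was higher: the transcription factor gene Cebpe, at 0.849 ± 0.417 against 0.147 ± 0.110 CPM (SD, n = 3 each; log2 2.52 ± 0.63 SE, adjusted p = 0.0202, edgeR). With SPARC in both arms Cebpe (log2 2.00, adjusted p = 0.0375, edgeR) and Adora3 (log2 1.60, adjusted p = 0.0473, edgeR) were higher in IL4c. As higher in IL4c, 10.2% of all genes passed in untreated wells and 10.9% with SPARC in both arms. Adora3, which macrophages also express, rose with SPARC in IL4c by 1.96 (adjusted p = 0.0178, edgeR) and Ccr3 fell by 2.44 (adjusted p = 0.0219, edgeR), where 27.8% of all genes passed in either direction. The part of eosinophils in the Rnase2a level was not tested.

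Neutrophil markers, relevant to Chil3, summed to 49.6 to 81.5 CPM in untreated TG and 38.4 to 45.5 CPM in untreated IL4c. The largest means in untreated TG and IL4c were those of Mmp8 (36.9 and 27.3 CPM), Mmp9 (14.9 and 6.21 CPM) and S100a8 (8.69 and 7.57 CPM). Ly6g, S100a9, Ngp and Mpo had at most 3 counts in every untreated library, so the sum says little about neutrophils. With SPARC the neutrophil list summed to 115 to 323 CPM in TG and 52.9 to 211 CPM in IL4c. Mmp8 again had the largest mean, at 123 CPM in TG and 71.2 CPM in IL4c. Ly6g, S100a9 and Ngp had at most 3 counts in every library with SPARC. Camp averaged 0.0558 and 0.671 CPM in TG without and with SPARC, and 0.0742 and 1.71 CPM in IL4c. Mast cell and basophil markers summed to 1.82 to 7.89 CPM in TG to 21.1, 2.84 and 5.48 CPM in untreated IL4c and to 18.1, 4.74 and 5.94 CPM in IL4c with SPARC. Of its 8 tested genes, Mcpt4 (adjusted p = 0.0287, edgeR) and Cma1 (adjusted p = 0.0478, edgeR) were higher in untreated IL4c than in untreated TG, and Mcpt4 and Tpsab1 were higher with SPARC in both arms (adjusted p = 0.0248 and 0.0197, edgeR). As higher in IL4c, 10.2% and 10.9% of all genes passed in these comparisons. The mean of Kit lay the other way, at 1.82 CPM in untreated TG and 0.773 CPM in untreated IL4c. With SPARC it was 2.73 and 0.605 CPM. With the block 1 gene of the list was higher and 1 lower in untreated wells (1787 and 1919 of all genes). With SPARC in both arms 3 were higher and 1 lower (1951 and 1890 of all genes). Markers of large resident peritoneal macrophages were higher in IL4c for 5 of 10 genes in untreated wells, with none lower. There 10.2% of all genes passed as higher. These markers summed to 517 to 604 CPM in untreated TG and to 2126, 460 and 485 in TG with SPARC. In IL4c they summed to 1359 to 3019 in untreated wells and 3525 to 5076 with SPARC. The higher sum with SPARC in IL4c lay in Prg4 (481 and 2664 CPM without and with SPARC) and Serpinb2 (743 and 1337 CPM). The list's median log2 difference there was −0.47, with 0 genes called without the block and 2 higher and 5 lower with it. Of all genes, 27.8% passed without the block and 45.2% with it. The part of these cell types in the levels of Chil3, Retnla and the other members was not tested.

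TG libraries numbered 1 stood apart from the rest. Their B cell markers summed to 2342 and 1821 CPM, while the remaining TG libraries held 90.3 to 191 CPM and IL4c libraries 59.5 to 354 CPM. The same libraries held the highest TG levels of Chil3 and Retnla, and without both of them the IL4c difference in untreated wells was 11.69 for Chil3 and 8.0 for Retnla on the log2 scale. T and NK cell markers summed to 60.5 and 49.4 CPM in these libraries and to 390 to 876 CPM in the other TG libraries, nearly all of it from Il7r (mean 565 CPM in untreated TG), while Cd3e, Cd3d, Cd3g, Trac and Cd8a each averaged below 1 CPM in untreated TG. In untreated IL4c the T and NK cell sum reached 138 CPM. Over all groups, dendritic cell markers summed to at most 96.4 CPM and mesothelial and fibroblast markers to at most 149 CPM. Markers of monocytes and small peritoneal macrophages summed to 1083 to 6474 CPM, the highest in untreated TG library 1. Of their 10 genes, 0 were higher and 2 lower in untreated IL4c, where 21.0% of all genes passed in either direction. The median log2 difference of that list was −1.37. Whether these cells bear on the TG levels was not tested.

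**Figure D4:**
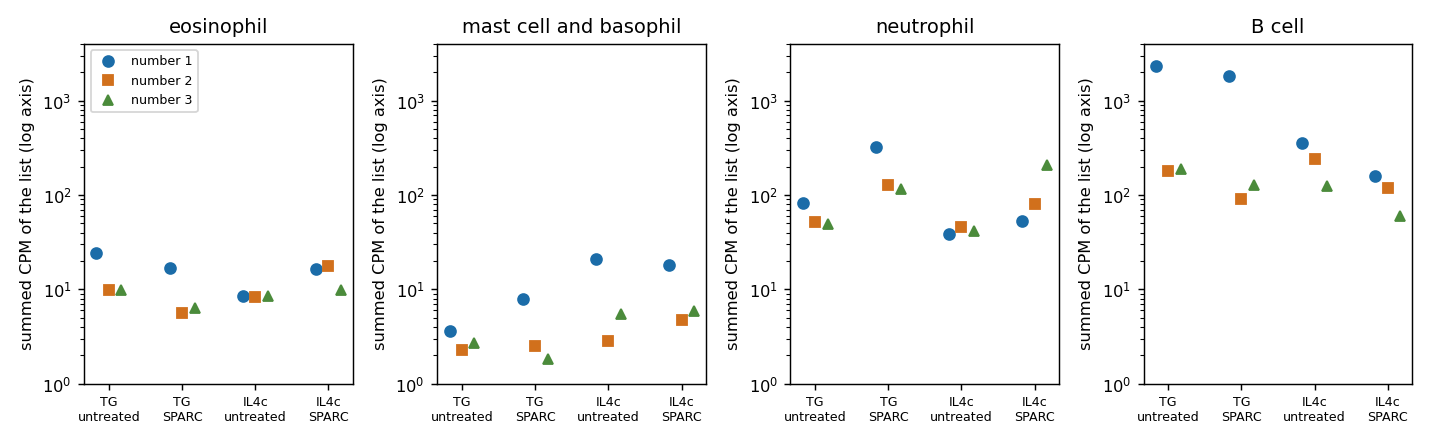
Summed CPM (log axis) of the marker lists of 4 other cell types in each library, by group; symbols give the library number. B cell markers reach 1821 CPM or more in TG libraries 1 alone, and eosinophil markers stay below 25 CPM in all 12 libraries.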

How the data were processed

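RNA sequencing gave 12 libraries in 4 groups of 3. The authors deposited expected counts per gene, not scaled, of which 19.2% of the nonzero values are not whole, and FPKM values, which the authors scaled by length and library size. STAR, RSEM, CASAVA and bcl2fastq 1.8.4 are named in the submitters' processing notes. The build, annotation and strandedness behind the counts are not stated in what was used here, and 99.1% of gene identifiers matched GENCODE for GRCm38 without their version (82.1% with it). RSEM can share reads between similar copies.

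Counts were rounded and fitted with edgeR 4.0.16 (quasi-likelihood, TMM scaling, robust dispersion) in R 4.3.3, in 1 fit over all 4 groups with 8 residual degrees of freedom. Genes were filtered with filterByExpr at a minimum count of 10, leaving 15232, and those with a Benjamini-Hochberg adjusted p below 0.05, over all genes fitted, passed. The common biological coefficient of variation was 0.308. Depth and the floor of 3 counts are given with the groups, and counting intervals and floors cover counting error only.

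Numbers were taken to pair libraries within an injection: deviations from group means of same-numbered libraries correlated at 0.342 to 0.735 in all 6 pairs (other numbers, −0.659 to 0.507). Across injections same-numbered libraries correlated at −0.178 to 0.250, which shows no pairing. The block for comparisons between injections nonetheless shared numbers across injections. Blocked values there, as for Rnase4 and Ear2, therefore rest on a pairing that the correlations do not show. The labels give shared numbers only. The block leaves 4 residual degrees of freedom within injections. No 2 libraries of a group were copies (chi-square per degree of freedom at least 9.82).

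Alternatives were total-count and RLE scaling, DESeq2 1.42.0, voom in limma 3.58.1, limma-trend on log2 of FPKM plus 1 or 0.1 (a minimum of 1 FPKM in 3 libraries, or unfiltered), no filter, a filter of 5 CPM in 3 libraries, the compared groups alone, the block, summed copies and left-out libraries. The members and lists were chosen with earlier results of these data known. The text names the members, tested genes of their families, Arg1, Mrc1, Clec10a and up to 4 further list genes of smallest p per comparison, and the 3 nearest genes by likeness (prior count of 2 in log2 CPM). Marker genes and Saa3 were named after their values were seen.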

Additional observations from a re-analysis of the deposited data

How the results depend on the processing

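The higher IL4c levels of Chil3, Chil4 and Retnla passed in every alternative run in which they were fitted, and that of Rnase2a in all but limma-voom in untreated wells. Chil4 and Rnase2a passed the low-count filter through the IL4c libraries alone, so their repeated passing is a description only. With the replicate block, genes called were 4165 (SPARC in TG), 6880 (SPARC in IL4c) and 472 (difference), members called with SPARC in IL4c were 3, Ear2 between injections with SPARC was −0.26 and the Retnla difference −0.19; the block changed no other member's call. Without both TG libraries numbered 1, genes called were 6002 and 5587 between injections (untreated, SPARC), 6507 for SPARC in IL4c and 836 for the difference, 1 member passed with SPARC in IL4c (Rnase2a), Ear2 was −0.22, the Retnla difference −0.33, and SPARC in TG gave 0.10 (Chil3) and 0.060 (Retnla). Without both IL4c libraries numbered 3, genes called were 2679 (SPARC in IL4c) and 1 (difference), 1 member passed, Ear2 was −1.25 and the differences of Retnla and Ear2 −0.14 and −0.29. Fitted alone, the compared groups gave 1631 genes (IL4c against TG, untreated) and 505 (SPARC in TG). DESeq2 called 2632 genes for SPARC in TG and 364 for the difference. On log2 FPKM with pseudocounts of 1, 0.1 and 1 unfiltered, the difference called 16, 3 and 38 genes, Ear2 was −0.24, −0.44 and −0.24, the Retnla difference −0.13 in each, and the Rnase2a difference 1.55, 0.62 and 1.55; 1 member passed with SPARC in IL4c at a pseudocount of 1, and the unfiltered fit called 1001 genes for SPARC in TG. With limma-voom 1 member passed there, Ear2 was −0.44 and the Retnla difference −0.17. Total-count scaling called 2 genes for the difference and put Ear2 at −0.028; no filter called 2 and put the Retnla difference at −0.011; the strict filter called 3. Summed copies gave Rnase2a −1.06 with SPARC in TG and a difference of 2.70. The cause of these shifts was not tested.

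Leaving out each library in turn, genes called were 1376 to 4562 and 1777 to 4293 between injections (untreated, SPARC), 737 to 2095 for SPARC in TG, 2507 to 5178 for SPARC in IL4c and 0 to 278 for the difference, and 0 to 1 members passed with SPARC in IL4c. Ear2 between injections with SPARC ran from −1.25 to 0.44. SPARC in TG ran from −0.78 to 0.81 for Chil3 and −0.99 to 0.77 for Retnla. Differences ran from −1.18 to 0.41 (Chil3), −1.05 to 0.72 (Retnla), −0.54 to 1.15 (Ear2) and −1.91 to 0.51 (Rnase2a). Depth limits Chil1, and Chil4 and Rnase2a in TG, to statements at the floor.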
